A study of Homo sapiens with 12 samples.

Results

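Transfer RNAs (tRNAs) were read out as a by-product of small RNA sequencing in Mono Mac 6 cells, a human monocytic leukaemia line, with and without 5-lipoxygenase (5-LO), the enzyme that starts leukotriene synthesis. The entries described here are the rows that the deposited tables class as tRNA, grouped by the amino acid and the base triplet in their names. There were 57 of them among 1231 noncoding RNAs in the table without lipopolysaccharide (LPS) and 57 among 1139 in the table with LPS, and the 57 names were the same in both. Wild-type cells (WT) and 5-LO knockout cells (5-LO KO) had all been differentiated with 1 ng/mL TGF-beta and 50 nM calcitriol for 72 h, and were then left without LPS or given 1 µg/mL LPS for 6 h. Each of the 4 groups had 3 libraries, 12 in all. The knockout cells came from CRISPR/Cas9 single-cell clones, and the labels do not say which clone a library came from. The tables hold no mRNA of the 5-LO gene, so the genotype could not be checked in them.

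Each table lists 1 value per genotype, the authors' mean of normalized counts over its 3 libraries. The means of all noncoding RNAs summed to 10757419 (WT) and 12142907 (5-LO KO) without LPS, and to 9680900 and 10165615 with LPS. For entries with a mean above 10 in either genotype, which have no resolved library values in both, no test between genotypes was run. Where both means were at least 10, a 95% interval for counting error is given from the size factors that the low means reveal. Where both were at most 10, the reads behind them could be worked out and an exact (Clopper-Pearson) interval is given, and in mixed cases none. The exact interval is that of a ratio of reads pooled over a genotype's libraries, relative to their summed size factors. The printed ratio of means weights libraries differently and can lie off the centre of that interval. The intervals do not hold the spread between cultures, and reads from PCR are not independent molecules, so the intervals and limits below cover counting error only. The tables were normalized separately and share no library, so that only ratios within a table and shares of a table's sum are set side by side. Ratios are log2 of the knockout mean over the wild-type mean, without a pseudocount.

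A tRNA carries an amino acid to the ribosome and reads a codon of the mRNA with its anticodon. A nuclear tRNA is transcribed by RNA polymerase III, folded into a cloverleaf and heavily modified, and its genes often occur in many near-identical copies. Stress-induced cleavage in the anticodon loop and other cuts release tRNA-derived fragments, which small RNA libraries capture together with longer pieces. The libraries here were selected at 130 to 260 bp including 126 bp of linkers, which leaves inserts of about 4 to 134 bases. The tables give no read lengths or positions, so full-length tRNAs and fragments cannot be told apart in any value below.

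The triplet in the names was the codon, not the anticodon. Of the 54 names with a triplet, 54 encode the named amino acid when read as a codon (selenocysteine by its recoded stop codon), and 0 do so when read as an anticodon. Lys-AAG therefore stands for the anticodon CTT and Glu-GAG for CTC. The 3 names without a triplet were methionine entries, of which Met-i is the initiator. A Y in 15 names stands for C or T, and together the names cover 58 of the 61 sense codons and the 20 standard amino acids. A trailing _ in 10 names is not explained in the sources used here. Neither is the (m) of Leu-TTA(m) and Ser-TCA(m), whose codons are those of the mitochondrial genes MT-TL1 and MT-TS1.

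The sequences below are genes with the anticodons of some abundant entries (Asp-GAY, Gly-GGY, Lys-AAG and Lys-AAA) and of Asn-AAC and Thr-ACA, whose knockout means were at least 2-fold lower in both tables. They were found in the GRCh37 genome by paired stems and the letters of the T arm, which gave 203 matches in the nuclear chromosomes. The search was incomplete, as RefSeq (GRCh38.p14) lists 443 nuclear tRNA genes. The table names do not link an entry to a gene, so each stands for its anticodon only. The anticodon is in capitals.
Asp anticodon GTC: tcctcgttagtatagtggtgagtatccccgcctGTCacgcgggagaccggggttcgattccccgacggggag
Gly anticodon GCC: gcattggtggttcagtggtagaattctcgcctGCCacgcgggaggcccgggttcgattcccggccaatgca
Lys anticodon CTT: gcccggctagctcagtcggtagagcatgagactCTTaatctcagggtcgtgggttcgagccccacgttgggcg
Lys anticodon TTT: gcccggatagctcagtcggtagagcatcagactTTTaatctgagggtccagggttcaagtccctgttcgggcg
Asn anticodon GTT: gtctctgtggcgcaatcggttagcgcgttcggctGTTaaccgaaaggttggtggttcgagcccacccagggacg
Thr anticodon TGT: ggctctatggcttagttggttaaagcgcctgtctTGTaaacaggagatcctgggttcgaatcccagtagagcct

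In GRCh37 the Asp gene lay at chr12:125411891-125411962 on the minus strand and had 11 identical copies, and the Gly gene lay at chr2:157257659-157257729 on the minus strand, with 6 copies. The Lys genes lay at chr1:145395522-145395594 on the minus strand (CTT) and chr1:204475655-204475727 on the plus strand (TTT), with 5 copies each. The Asn gene lay at chr1:148248115-148248188 on the plus strand, with 6 copies, and the Thr gene at chr6:28442329-28442402 on the minus strand, with 1 copy. Copies were counted among the matches only. For the Thr anticodon TGT there was 1 match, where RefSeq lists 6 genes. Each position given is that of a copy outside the genes of the GENCODE annotation used, whose file held no nuclear tRNA gene. Such copies were 2 of 11 for Asp, 3 of 6 for Gly, 4 of 5 for each Lys gene, 4 of 6 for Asn and 1 of 1 for Thr, and the others overlapped annotated genes. Identical copies cannot be told apart by reads that lie within the printed sequence. Anticodons were not always far apart either, since the closest Gly genes with GCC and CCC differed at 3 positions. Counts of entries that share such sequences are uncertain where reads fit more than 1 of them.

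The mitochondrial genes that match the (m) names are shown as GENCODE places them on chrM of GRCh37, which need not be the mitochondrial sequence the authors aligned to. MT-TL1 (chrM:3230-3304, plus strand) is a leucine and MT-TS1 (chrM:7446-7514, minus strand) a serine tRNA.
MT-TL1: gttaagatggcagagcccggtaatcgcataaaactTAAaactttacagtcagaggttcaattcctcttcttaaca
MT-TS1: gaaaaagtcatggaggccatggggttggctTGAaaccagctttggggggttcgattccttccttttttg

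tRNA entries were lower in the knockout cells in both tables, and by more with LPS. Without LPS their means summed to 66304 in WT and 51785 in 5-LO KO, a log2 ratio of -0.36 (95% counting interval -0.37 to -0.35). With LPS they summed to 92128 and 44925, a log2 ratio of -1.04 (-1.05 to -1.03), so that the wild-type sum was 2.05-fold the knockout sum. In RNA from whole cultures, fewer cells with a given tRNA and less of it per cell cannot be told apart. As a share of all noncoding RNA, tRNA entries made up 0.616% (WT) and 0.426% (5-LO KO) without LPS, and 0.952% and 0.442% with LPS. The share in the wild-type cells was thus 1.54-fold higher in the table with LPS, while that in the knockout cells differed by 1.04-fold. Against snoRNA, the largest class, there were 9.57 tRNA counts per 1000 in WT and 7.18 in 5-LO KO without LPS, and 14.8 and 7.34 with LPS.

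The median log2 ratio over single entries was -0.68 without LPS, over all 57 entries, beside -0.01 over the 914 noncoding RNAs with both means above 0. With LPS it was -1.16 over the 54 entries with both means above 0, beside -0.03 over 883 noncoding RNAs. With 2 entries listed at 0 in the knockout set to their lower bound, the median with LPS was -1.19 over 56. The other classes had medians closer to 0. Those of the small cytoplasmic RNAs (scRNA, 4 entries) were -0.37 and 0.16, of piRNAs -0.28 and -0.14, of snoRNAs 0.05 and 0.00, of mature miRNAs 0.10 and 0.10, of their precursors 0.09 and 0.28, and of rRNA (3 entries) 0.21 and 0.27. Summed rRNA was higher in the knockout, with a log2 ratio of 0.60 without and 0.44 with LPS, and its part in the tRNA result was not tested. Scaled to equal sums of all noncoding RNAs, every log2 ratio without LPS would shift by -0.17, and the tRNA sum and median would stay negative.

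**Figure D1:**
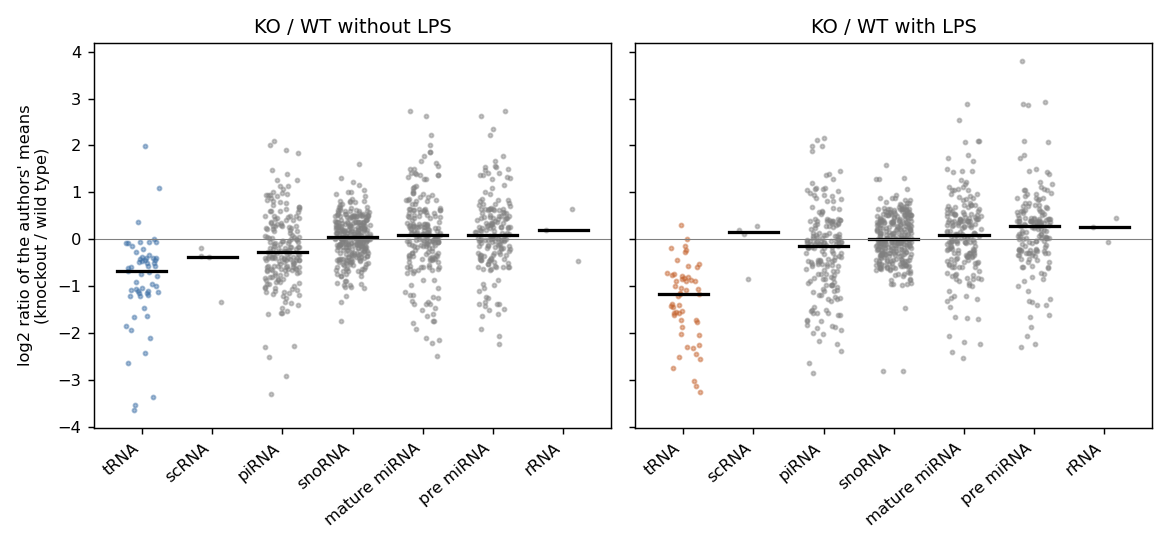
Log2 ratio of the knockout to the wild-type mean for each noncoding RNA with both means above 0, by class, without (left) and with LPS (right); each point is 1 entry and the black bar the class median. The tRNA medians lie at -0.68 and -1.16, and the other classes with over 4 entries between -0.28 and 0.28.

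Without LPS, 53 of 57 tRNA entries were lower in the knockout, where 51% of all noncoding RNAs were. At least 2-fold lower were 22 of the 57, beside 10.4% of all noncoding RNAs, and at least 2-fold higher were 2, beside 7.33%. The latter count was 1 at equal sums of all noncoding RNAs, and 0 with 1 added to both means or with means of at least 10. With LPS, 53 of 54 were lower (51.2% of all), 32 were at least 2-fold lower (11.2% of all) and 0 at least 2-fold higher (6.91% of all). The 4 entries that were higher in the knockout without LPS were Tyr-TAC, Ser-TCA, SeC(e)-TGA and Ala-GCG, of which Ala-GCG, with a log2 ratio of 0.01 (-1.67 to 1.81) from 7 reads per genotype, turned negative under each rescaling tried and ranged from -0.45 to 0.96 when 1 library was left out in turn. With LPS only Thr-ACG was higher, at 0.30 from 25 reads per genotype, and its counting interval of -0.63 to 1.09 included no change. Without the knockout library with the largest size factor, Thr-ACG was lower in the knockout too, at -0.35.

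The lower knockout values were found at all levels of abundance. In the table without LPS, the 9 entries with a mean of at least 1000 over both genotypes had a median log2 ratio of -0.43, the 7 from 100 to 1000 one of -0.73, the 21 from 10 to 100 one of -0.77 and the 20 under 10 one of -1.08. Other noncoding RNAs in the same level classes had medians between -0.10 and 0.09. With LPS the tRNA medians were -0.84 (9 entries), -0.71 (7), -1.19 (22) and -2.17 (16), against -0.01 to 0.09 for the others.

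**Figure D2:**
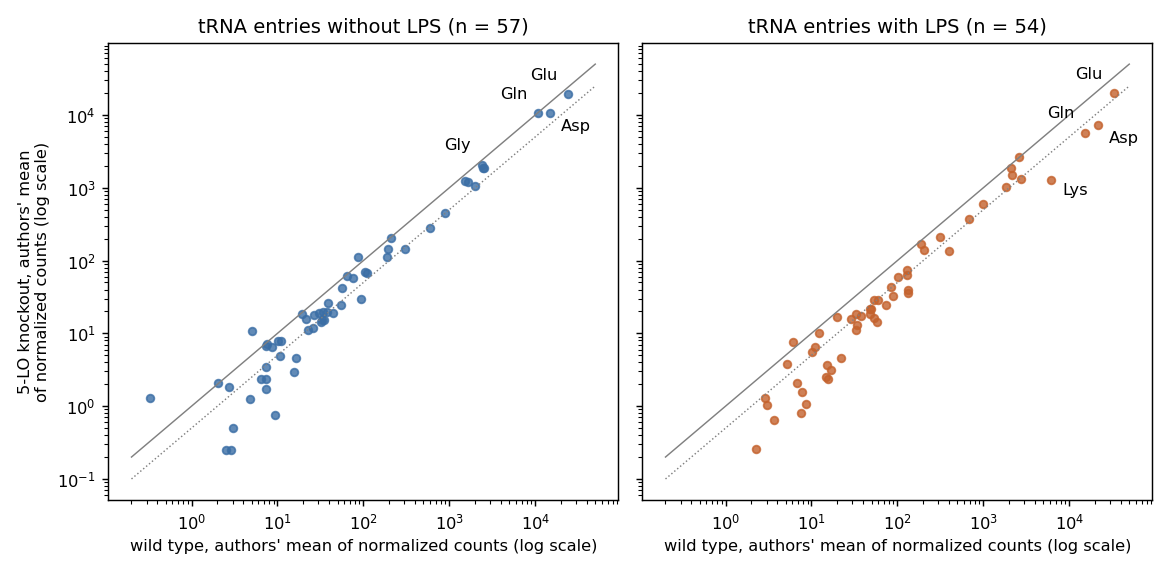
The authors' mean of normalized counts in knockout (vertical) against wild-type cells (horizontal), both on log axes, for each tRNA entry with both means above 0, without (left, 57 entries) and with LPS (right, 54). The solid line marks equal means and the dotted line a 2-fold lower knockout mean; names mark the amino acid of the 4 most abundant entries. With LPS 32 points lie on or under the dotted line.

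Most tRNA counts came from few entries. Glu-GAG_, Asp-GAY and Gln-CAA_ held 75.6% (WT) and 78.0% (5-LO KO) of the summed tRNA means without LPS, and 76.1% and 73.5% with LPS. The 10 most abundant entries held 95.9% to 96.8% of each sum. To set levels beside genes, entries marked _ were assigned to nuclear anticodons by their codon, and entries marked (m) were left out. That assignment was not tested. The 10 most abundant nuclear anticodons had the same order when their level was divided by the median length of their genes in RefSeq, which lay between 71 and 74 bases for them. Over 47 anticodon sets matched to the 443 nuclear tRNA genes of RefSeq (GRCh38.p14), the wild-type level without LPS and the gene number had a Pearson r of 0.30 (log2 scale) and a Spearman rho of 0.24 across anticodons, which are not independent replicates. Cys-TGY, with 29 genes, had a wild-type mean of 7.31, while Gln with anticodon TTG, with 6 genes, reached 10940, most of it from Gln-CAA_.

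Glu-GAG_, read by the anticodon CTC, was the most abundant entry. Its mean was 24323 in WT and 19271 in 5-LO KO without LPS, a log2 ratio of -0.34 (-0.35 to -0.32). With LPS it was 33059 and 19958, a ratio of -0.73 (-0.74 to -0.71). Glu-GAG without the _ was far less abundant, at 19.2 and 18.3 without LPS and 19.9 and 16.9 with LPS, and its counting intervals included no change in both tables. Glu-GAA, with the anticodon TTC, had a ratio of -0.40 (-0.58 to -0.21) without LPS and -0.15 (-0.32 to 0.03) with LPS. At equal sums of all noncoding RNAs the latter was -0.22 (-0.39 to -0.04), so that whether its interval included no change depended on the scaling.

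Asp-GAY and Gln-CAA_ had ratios further from 0 in the table with LPS. Asp-GAY had means of 14904 (WT) and 10571 (5-LO KO) without LPS, a log2 ratio of -0.50 (-0.52 to -0.47), and of 21796 and 7336 with LPS, a ratio of -1.57 (-1.59 to -1.55). Gln-CAA_ had means of 10903 and 10535 without LPS, a ratio of -0.05 (-0.07 to -0.03), and of 15221 and 5719 with LPS, a ratio of -1.41 (-1.44 to -1.39). It was thus among the entries least lowered in 1 table and 2.66-fold lower in the other.

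The lysine entries differed from each other. Lys-AAG, with the anticodon CTT, had means of 2009 (WT) and 1064 (5-LO KO) without LPS, a log2 ratio of -0.92 (-0.98 to -0.85). With LPS its means were 6180 and 1262, a ratio of -2.29 (-2.34 to -2.24), or 4.90-fold lower, the lowest among entries with a mean of at least 1000. Lys-AAA, with the anticodon TTT, had ratios of -0.27 (-0.33 to -0.21) and -0.84 (-0.91 to -0.78). The printed Lys genes differed at 12 of 73 positions, counted from 1 at the 5′ end, among them C34T in the anticodon.

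The glycine entries differed among themselves. Gly-GGY, with the anticodon GCC, a well-known source of tRNA fragments, had means of 2396 (WT) and 2077 (5-LO KO) without LPS, a log2 ratio of -0.21 (-0.26 to -0.16). With LPS the means were 2636 and 2635, a ratio of -0.00 (-0.05 to 0.05), which became 0.02 when the table was scaled to equal sums except rRNA and -0.07 (-0.12 to -0.03) at equal sums of all noncoding RNAs. Whether a difference with LPS was detectable for this entry thus depended on the scaling. Gly-GGG had ratios of -0.43 (-0.48 to -0.38) and -1.05 (-1.10 to -0.99), and Gly-GGA of -0.98 (-1.08 to -0.89) and -0.71 (-0.80 to -0.62). The glycine entries therefore had ratios whose counting intervals did not meet.

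The (m) entries were less lowered than the tRNA sum with LPS. Ser-TCA(m) had means of 2536 (WT) and 1845 (5-LO KO) without LPS, a log2 ratio of -0.46 (-0.51 to -0.41), and of 2127 and 1885 with LPS, a ratio of -0.17 (-0.23 to -0.12). Leu-TTA(m) had ratios of -0.43 (-0.49 to -0.37) and -0.52 (-0.58 to -0.47). Summed over both, the ratio was -0.45 without and -0.34 with LPS, where the sum of all tRNA entries stood at -0.36 and -1.04.

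Summed by amino acid, 19 of 21 amino acids had a lower knockout sum without LPS, the exceptions being Tyr and SeC. With LPS all 20 amino acids with a ratio had a lower knockout sum. The lowest sums among those with counts of at least 10 in both genotypes were those of Thr (-1.52, interval -1.81 to -1.23) and Ala (-1.38, -1.81 to -0.96) without LPS, and of Phe (-2.00, -2.50 to -1.51), Lys (-1.81, -1.85 to -1.77) and Thr (-1.80, -2.07 to -1.53) with LPS. The smallest decreases with LPS were those of Ser (-0.22), where 1 entry marked (m) held most counts, and Gly (-0.48). This order depended on the abundant entries, since the median over an amino acid's entries with LPS was -1.42 for Ser, -0.71 for Gly and -0.23 for Glu, whose sum had -0.72.

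**Figure D3:**
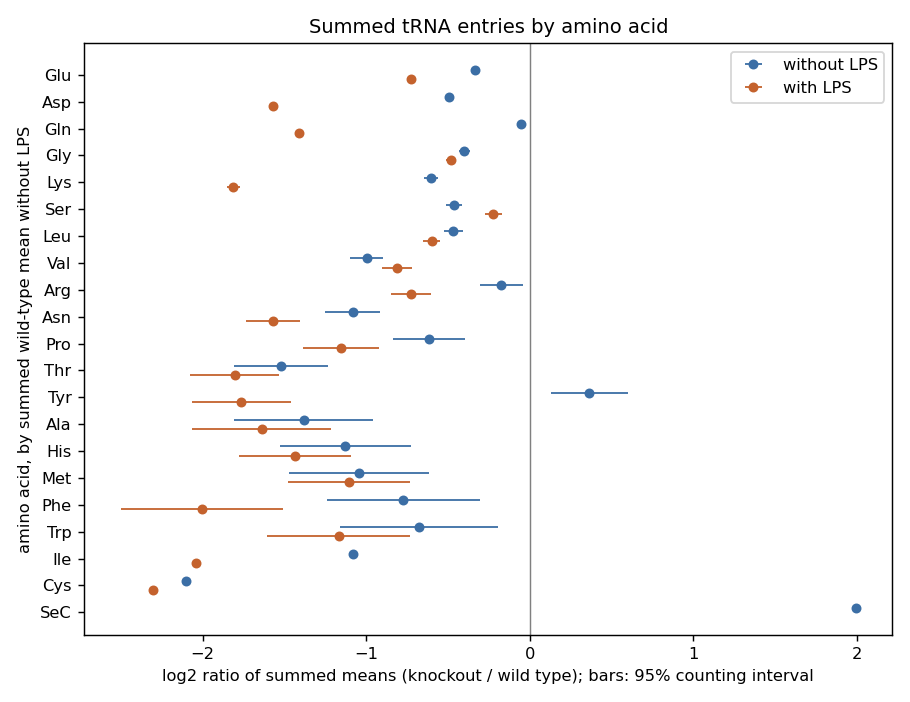
Log2 ratio of summed knockout to summed wild-type means for each amino acid, without (blue) and with LPS (orange); bars are 95% intervals for counting error and are drawn where both sums are at least 10. With LPS all points lie left of 0; Tyr lies at 0.37 without LPS and at -1.76 with LPS, and SeC is drawn without LPS only.

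Among queuosine-type tRNAs (His, Asn, Asp and Tyr), whose first anticodon base is a guanosine that is exchanged for queuosine, 3 of 4 entries were lower without LPS and 4 of 4 with LPS, beside 53 of 57 and 53 of 54 tRNA entries and 51% and 51.2% of all noncoding RNAs. At least 2-fold lower were 2 of 4 without LPS and 4 of 4 with LPS, beside 22 of 57 and 32 of 54 tRNA entries and 10.4% and 11.2% of all noncoding RNAs. Their ratios with LPS lay between -1.76 and -1.44. Asn-AAC had means of 307.2 (WT) and 145.1 (5-LO KO) without LPS (-1.08, -1.25 to -0.91) and of 403.9 and 136.0 with LPS (-1.57, -1.74 to -1.40). His-CAY_ had ratios of -1.13 (-1.53 to -0.73) and -1.44 (-1.78 to -1.09). Tyr-TAC was the only one of the 4 to change direction between the tables, with means of 87.6 (WT) and 112.9 (5-LO KO) without LPS (0.37, 0.13 to 0.60) and of 134.6 and 39.7 with LPS (-1.76, -2.07 to -1.46). Its ratio without LPS was 0.19 at equal sums of all noncoding RNAs, where the interval of -0.04 to 0.42 included no change.

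The known sources of tRNA fragments (Gly, Glu, Val, Lys, His and Asp) had 13 entries, and 13 of 13 were lower in each table, of which Gly-GGY with LPS turned higher at equal sums except rRNA. Of all tRNA entries 53 of 57 and 53 of 54 were lower, and of all noncoding RNAs 51% and 51.2%, so that these counts were near those of tRNA entries in general. At least 2-fold lower were 2 of 13 without LPS, beside 22 of 57 tRNA entries and 10.4% of all noncoding RNAs, and 4 of 13 with LPS, beside 32 of 54 and 11.2%. Their medians were -0.43 and -0.84. Val-GTG had ratios of -1.10 (-1.22 to -0.98) and -0.89 (-0.998 to -0.784), and Val-GTA of -0.73 (-0.93 to -0.53) and -0.57 (-0.75 to -0.38). Val-GTY without LPS had a ratio of -0.14 (-0.99 to 0.85), so that its interval included no change. Its ratio turned positive without the wild-type library with the middle size factor (0.52). The same held without the knockout library with the middle size factor (0.11).

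The nuclear tRNAs of Leu, Ser and SeC are class II tRNAs, which have a long variable arm, whereas the mitochondrial ones lack it. The (m) entries, which match mitochondrial genes by codon only, were left out after seeing the data. Without them, 9 of 11 entries were lower without LPS (51% of all noncoding RNAs). With LPS, 10 of the 10 with a ratio were lower (51.2%). Both counts were near the 53 of 57 and 53 of 54 of all tRNA entries. The medians were -0.61 and -1.30, and with the (m) entries, which held most counts, -0.57 and -1.05. Leu-CTA had ratios of -0.42 (-0.76 to -0.09) and -1.61 (-2.00 to -1.22). Ser-TCA had means of 5.01 (WT) and 10.7 (5-LO KO) without LPS (1.09) and of 11.1 and 6.47 with LPS (-0.78). SeC(e)-TGA, which reads the recoded stop codon of selenoproteins, had 1 read in WT and 4 in 5-LO KO without LPS, a log2 ratio of 1.99 with an interval of -1.27 to 7.69. Without the knockout library that held 3 of the 4 reads, the one with the middle size factor, it was 0.19. With LPS it was listed at 0 in WT and had 1 read in 5-LO KO, which is under the limit that a count of 0 allows.

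For methionine, the initiator Met-i, which starts translation, had means of 10.3 (WT) and 7.80 (5-LO KO) without LPS (-0.40) and of 12.1 and 10.1 with LPS (-0.26, -0.97 to 0.45). With LPS the difference was not detectable at this depth, and without LPS no interval was computed. Met_ had ratios of -1.20 (-1.73 to -0.67) and -1.40 (-1.86 to -0.94). The entry Met had 9 reads in WT and 1 in 5-LO KO without LPS (-3.53, -8.56 to -0.25), and between -3.91 and -2.45 when 1 library was left out, the latter without the wild-type library with the middle size factor. With LPS it had 6 wild-type reads, all of them in the library with the smallest size factor, and 4 knockout reads, all in the library with the largest (-1.55, -2.62 to 1.72).

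Ala-GCA and Thr-ACY_ were among the 5 lowest ratios in both tables, counting entries with a mean of at least 10 in 1 genotype and above 0 in both. They reached 10 in the wild type only, and a minimum met in 1 genotype favours ratios far from 0. Ala-GCA had means of 15.7 (WT) and 2.95 (5-LO KO) without LPS (-2.41) and of 15.5 and 2.34 with LPS (-2.73). Its knockout libraries held 6.74, 2.12 and 0 normalized reads without LPS and 4.61, 2.395 and 0 with LPS, so that 1 library held most of them. Without that library, the one with the largest size factor, the ratios were -3.89 and -3.70. Thr-ACY_ had ratios of -1.85 and -2.24, and of -2.99 with LPS without the knockout library with the middle size factor. Thr-ACA, with the anticodon TGT, had means of 95.1 and 30.1 without LPS (-1.66, -2.01 to -1.31) and of 131.7 and 36.0 with LPS (-1.87, -2.19 to -1.56). Pro-CCG had ratios of -1.20 (-1.66 to -0.75) and -1.72 (-2.19 to -1.24). Arg-CGA and Ser-TCY were, like Lys-AAG, among the 5 lowest with LPS, at -2.55 and -2.43, after -1.06 and -1.10 without LPS. With LPS the means were 14.9 (WT) and 2.53 (5-LO KO) for Arg-CGA and 16.8 and 3.12 for Ser-TCY. Arg-CGA and Ser-TCY thus also reached 10 there in the wild type only. The knockout libraries of Ser-TCY with LPS held 6.92, 1.198 and 1.23 normalized reads, and its ratio was -3.79 without the first, which had the largest size factor. For Arg-CGA without LPS the interval of -2.18 to 0.10 included no change, though not at equal sums of all noncoding RNAs (-2.36 to -0.08), and the ratio was -0.37 without the wild-type library with the middle size factor. At the other end, Arg-AGG had a ratio of -0.06 (-0.22 to 0.10) without LPS, which was -0.23 (-0.40 to -0.07) at equal sums of all noncoding RNAs, and -0.59 (-0.74 to -0.44) with LPS.

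Of the entries listed at 0 in a genotype, all 3 were in the table with LPS. Ile-ATA, with the anticodon TAT, had a wild-type mean of 10.6 and was listed at 0 in the knockout, which is at least 10.4-fold lower when 3 reads over the group are taken as the limit of a count of 0. Without LPS it had 29 reads in WT, at 8.80, 7.88 and 11.3 normalized reads per library, and 3 in 5-LO KO, at 2.25, 0 and 0 (-3.64, -5.57 to -1.52). The libraries of the genotypes did not overlap, and the ratio was -3.06 without either knockout library at 0. Thr-ACY had 13 wild-type reads with LPS, at 2.91, 7.46 and 0 per library, and 0 knockout reads, at least 3.40-fold lower. Without the wild-type library at 7.46 this limit was 1.43-fold. Without LPS its ratio was -0.58 (-2.15 to 1.37), and between -1.27 and 0.02 when 1 library was left out in turn. The third was SeC(e)-TGA.

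For entries with means of at most 10 in both genotypes, the reads of each library could be worked out from the mean, though not its replicate number. Without LPS, 15 tRNA entries were of this kind, and their summed normalized reads were 71.2, 107.4 and 60.0 in the wild-type and 50.9, 37.0 and 27.6 in the knockout libraries. With LPS, 12 entries summed to 50.0, 68.1 and 54.1 in the wild-type and to 33.8, 17.96 and 9.85 in the knockout libraries. The genotypes did not overlap in either table. In the same kind of sum, the libraries of the genotypes overlapped for piRNAs, snoRNAs, mature miRNAs and precursors in both tables. Entry by entry, all knockout libraries lay under all wild-type libraries for 6 of 15 tRNA entries without LPS, beside 2.75% of all such noncoding RNAs, and for 4 of 12 with LPS, beside 2.58%. The 6 were Ile-ATA, Met, Ser-TCA_, Gln-CAG, Thr-ACG_ and Arg-AGA, and the 4 were Thr-ACG_, Ala-GCY_, Ser-TCA_ and Cys-TGY. These shares were not matched for reads per entry. Without LPS the wild-type reads were 251 over 15 tRNA entries, 111 over 11 snoRNAs, 893 over 169 mature miRNAs and 539 over 226 piRNAs. Among snoRNAs, 2 of 11 lay under without LPS and 2 of 10 with LPS. For mature miRNAs these counts were 4 of 169 and 3 of 152, and for piRNAs 1 of 226 and 2 of 185. With 3 libraries against 3, a two-sided exact permutation test of the difference in means cannot go below p = 0.1, so no entry could reach 0.05. These 6 and 4 entries had p = 0.1 in the exact test, and each had an adjusted p of 1 over the 546 and 466 noncoding RNAs tested.

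**Figure D4:**
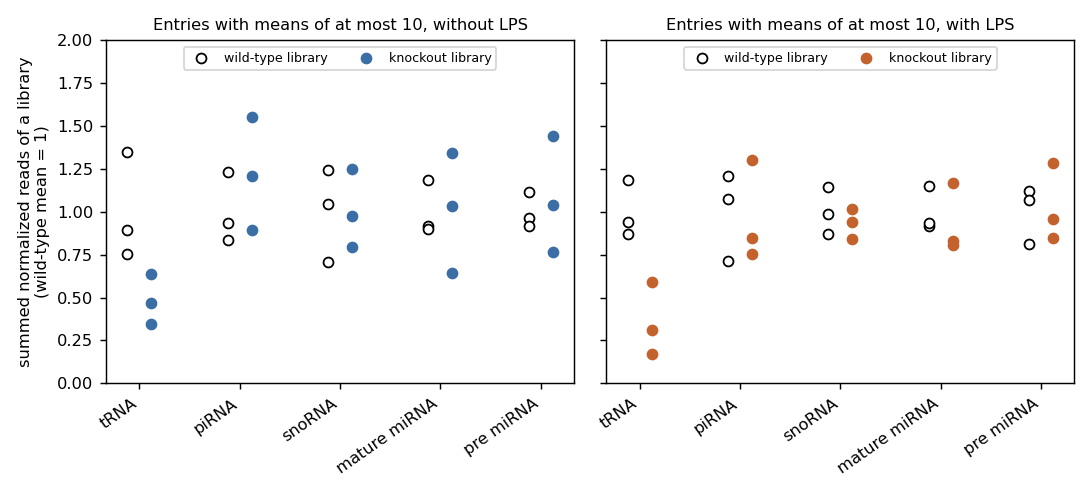
Summed normalized reads of each library over entries with means of at most 10 in both genotypes, relative to the mean of the wild-type libraries, by class, without (left) and with LPS (right); open circles are wild-type and filled circles knockout libraries, 3 each. The knockout libraries lie below the wild-type libraries for tRNA and overlap them for the other 4 classes.

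Thr-ACG_ and Ser-TCA_ were under the wild-type range in both tables. Ser-TCA_ had 8 reads in WT and 1 in 5-LO KO without LPS (-3.35, -8.40 to -0.03). With LPS it had 11 and 2 reads (-2.50, -5.44 to -0.03). Leaving out 1 library in turn gave it ratios from -3.42 to -2.76 without LPS and from -3.27 to -1.92 with LPS. The normalized reads of Thr-ACG_ without LPS were 5.603, 11.8 and 4.53 in the wild-type and 2.25, 2.12 and 2.76 in the knockout libraries, a log2 ratio of -1.62 (-3.11 to -0.38). With LPS they were 5.82, 13.99 and 3.01 against 0, 2.395 and 0, a ratio of -3.25 (-6.64 to -1.53). Without the wild-type library with the middle size factor, which held the most, the ratios were -1.09 and -2.47. Cys-TGY, the only cysteine entry, had 24 wild-type reads in each table and 6 and 5 knockout reads, with ratios of -2.10 (-3.51 to -0.60) and -2.30 (-3.78 to -0.61). Without LPS its wild-type libraries held 8.004, 12.8 and 1.13 normalized reads and overlapped the knockout libraries at 2.99, 2.12 and 0. Leaving out 1 library in turn gave ratios from -2.79 to -1.42 without LPS and from -2.77 to -1.72 with LPS.

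The ratio of knockout to wild type was lower with LPS than without for 42 of the 54 tRNA entries with a ratio in both tables, where 53% of all noncoding RNAs were. The median difference was -0.35 in log2 for tRNA entries and -0.03 for all noncoding RNAs. Among the 10 most abundant entries the difference was largest for Lys-AAG (-1.37), Gln-CAA_ (-1.36) and Asp-GAY (-1.08). Of these 10, it was positive for Ser-TCA(m) (0.29), Gly-GGA (0.27) and Gly-GGY (0.21). Less abundant entries could lie further from 0, such as Tyr-TAC (-2.13). Whether the genotype ratio differed with LPS was not tested.

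**Figure D5:**
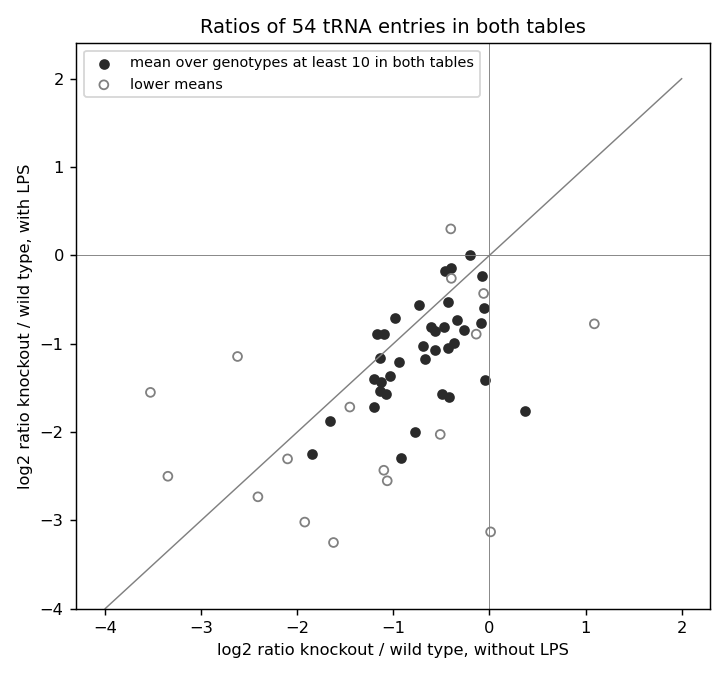
Log2 ratio of the knockout to the wild-type mean with LPS (vertical) against without LPS (horizontal) for the 54 tRNA entries with both means above 0 in both tables; filled points have a mean over genotypes of at least 10 in both tables, open points lower means. The line marks equal ratios, and 42 points lie below it.

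The marker miRNAs of myeloid cells were present in both genotypes. All 4 of miR-223-3p, miR-142-3p, miR-142-5p and miR-21-5p were listed, and summed to 3014 (WT) and 4449 (5-LO KO) without LPS and to 3205 and 3698 with LPS, most of it miR-21-5p. The members differed in direction, as miR-21-5p had means of 2499 and 3885 without LPS, while miR-223-3p had 93.8 and 74.3 without LPS and 60.4 and 58.0 with LPS. Of 9 miRNAs that mark other cell types, 2 were listed, miR-9-5p and miR-200c-3p, and summed to 17.4 and 42.3 without LPS and to 20.7 and 21.2 with LPS; miR-200c-3p was at 0 in the knockout in both tables. Their part in the tRNA ratios was not tested. Of 6 miRNA names whose sequences match tRNA fragments, miR-1260a and miR-1260b were listed, without LPS only, each with a wild-type mean of 0.267 and a knockout mean of 0.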

How the data were processed

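Small RNA libraries were made by the authors from 1 µg total RNA. The signal in the deposited tables is the mean of counts normalized by the authors with omiRas after adapter trimming and annotation against hg19. The labels and paper give no version, aligner or rule for reads with several matches. Further deposited columns hold the authors' log2 fold change, p-value and FDR, and were not used. The design had foreseen means per genotype and no test; an exact permutation test with Benjamini-Hochberg adjustment was added after seeing the data for entries resolved into libraries in both genotypes.

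Ratios, sums, medians and counts past 2-fold were computed with pandas 2.3.3, numpy 2.4.6 and scipy 1.17.1. Every mean of at most 10 resolved into whole reads of 3 libraries in 1 way, which gave size factors of 0.665 to 1.72. These set the counting intervals (95%, exact where both genotypes were resolved) and the limit of 3 reads over a group at 0. The recovery was tested on simulated data. Entries were named by fixed rules: the 10 highest means, the 5 highest and 5 lowest ratios with a mean of at least 10 in 1 genotype, entries at 0, and the listed groups; Thr-ACG_ and other entries outside these rules were singled out after their values were seen. The members and lists were chosen with earlier results of these data known. Gene numbers and lengths came from RefSeq GRCh38.p14. Alternatives were other scalings, a pseudocount of 1, a minimum mean of 10, leaving out the most abundant entry, the median over an amino acid's entries in place of its sum and leaving out each resolved library (for entries resolved in 1 genotype only, added after seeing the data).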

Additional observations from a re-analysis of the deposited data

How the results depend on the processing

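The summed and median tRNA log2 ratios were negative under all alternatives run. Without LPS the sum moved from -0.36 to -0.53 with equal sums of all noncoding RNAs, -0.38 with the median ratio of all noncoding RNAs with means of at least 10 set to 1, -0.43 with equal sums except rRNA (an alternative chosen after seeing the data) and -0.37 without the most abundant entry, and the median from -0.68 to -0.85, -0.70 and -0.75 under these scalings. The median was -0.65 with 1 added to both means, -0.59 with means of at least 10 in both genotypes and -0.61 without entries marked _, also chosen after seeing the data. With LPS the sum moved from -1.04 to -1.11 with equal sums, -1.02 with equal sums except rRNA and -1.24 without the most abundant entry. The median with LPS moved from -1.16 to -1.24 with equal sums, -1.15 with equal sums except rRNA, -1.12 with 1 added, -1.02 with means of at least 10 and -1.11 without entries marked _.

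Counts depended on rare entries. With means of at least 10 in both genotypes, fewer entries were left, and the entries at least 2-fold lower numbered 10 of 36 in place of 22 of 57 without LPS and 19 of 37 in place of 32 of 54 with LPS, where those of all noncoding RNAs numbered 33 of 643 and 43 of 636 in place of 95 of 914 and 99 of 883. The tRNA entries lower at all without LPS were 35 of 36 under that minimum, where 306 of 643 noncoding RNAs were. The entries at least 2-fold higher without LPS were 1 with equal sums, 0 with 1 added and 0 with means of at least 10, in place of 2. The other counts stayed within 1.5 times. Of 788 recomputed ratios of single entries and amino acids, 78 moved by more than counting error and 18 changed sign, none of them a ratio past 2-fold. Leaving out a resolved library changed the sign of 7 of 25 ratios of entries resolved in both genotypes, 0 of them among the 18 past 2-fold, but took SeC(e)-TGA without LPS from 1.99 to between 0.19 and 2.58; in 11 cases no reads were left and no ratio was computed. No paired analysis was possible because the deposited columns are means over a genotype's libraries and carry no replicate number. Depth limits all ratios that rest on fewer than 10 reads in a genotype, and the spread between cultures cannot be given for abundant entries.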

Other observations

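The tRNA entries were also grouped by the last base of the codon. Codons ending in A (20 entries without and 18 with LPS) had a median log2 ratio of -0.52 without LPS and -1.03 with LPS, those ending in G (16 entries in each) -0.69 and -1.10, and those ending in Y (15 and 14 entries) -0.77 and -1.48. The 2 entries ending in C had -0.36 and -1.67, and the entry ending in T -0.06 and -0.43. Differences between these groups were not tested. The ratios of single entries in the table without and the table with LPS, which share no library, had a Spearman rho of 0.56 over 54 entries and of 0.44 over the 36 with means of at least 10 throughout; entries are not independent replicates.

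The 10 entries whose names end in _ had a median log2 ratio of -1.17 without LPS and -1.42 with LPS, while their sums had -0.24 and -0.91, less lowered than the sums of all tRNA entries (-0.36 and -1.04). Where a name occurred with and without the _, the levels could lie far apart. Gln-CAA_ had a wild-type mean of 10903 and Gln-CAA of 37.7 without LPS, with ratios of -0.05 and -0.94.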
